A study of Mus musculus with 6 samples.

Results

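The Wnt pathway genes described here are 48 named genes of the mouse, taken from a list of symbols, out of 37224 genes in the count table. They comprise 12 ligand genes (9 Wnt genes, the R-spondin *Rspo3*, and *Porcn* and *Wls*, whose products let Wnt proteins leave the cell), 15 receptor genes, 13 inhibitor genes and 8 genes of the intracellular effectors. All 48 symbols matched 1 gene each. RNA was compared between whole pancreata of wild-type (wt) C57/Bl6J embryos at 13.5 and at 15.5 days post coitum (dpc). Each stage had 3 samples, and up to 3 embryos were pooled for a sample. These stages lie around the secondary transition, when acinar and endocrine cells form in large numbers. Both groups carry no mutation and received no treatment. The samples of a stage are described as independent, and other stages and genotypes were not analysed here.

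Wnt proteins are secreted, lipid-modified signals that bind Frizzled receptors. Together with the co-receptors Lrp5 and Lrp6 they spare β-catenin from the destruction complex built on Axin and Apc, so that β-catenin can enter the nucleus and act with TCF/LEF factors on target genes, several of which feed back on the pathway. Other Wnt proteins, among them Wnt5a and Wnt11, act mainly without β-catenin, through Ror and Frizzled receptors, on cell shape and movement. In the embryonic pancreas, Wnt signals pass within and between the epithelium and the mesenchyme around it, and β-catenin is needed for the growth of the acinar compartment.

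Total counts per sample were 10546028 to 16389237. The values below are normalised counts, that is, counts scaled by edgeR's TMM factors to a common library size, and are given in the order of replicates 1, 2 and 3. A gene was called where edgeR's quasi-likelihood test gave an adjusted p (Benjamini-Hochberg, over all genes tested) of at most 0.05, and log2 fold changes are those of 15.5 over 13.5 dpc, each with its standard error (SE). The acinar markers, such as *Ctrb1* and *Ptf1a*, were called higher at 15.5 dpc in 9 of 10 cases, and the epithelial, endocrine and mesenchymal markers were present in every sample, so the markers fit the labelled tissue. Spread was larger at 15.5 dpc. Over the 44 Wnt pathway genes that could be tested, the median coefficient of variation was 5.99% at 13.5 dpc and 15.6% at 15.5 dpc, and 15.5 dpc replicate 1 was the lowest sample of its stage for 31 of them, while replicate 2 was the highest for 32. The log2 ratio of 15.5 dpc replicate 2 to replicate 1 ran with exon length across these genes (Spearman rho 0.54, n = 44 genes in the same pair of libraries, given as a description). Such a trend was also seen over all genes and at 13.5 dpc. Over all 15578 genes, rho was -0.59 for the inverse ratio, and for 13.5 dpc replicate 3 to replicate 1 it was 0.48 over the 44 genes. Calls of Wnt pathway genes that change without one of these libraries are therefore given without it as well, whereas sums and shares per family are given by sample range or SD over all samples.

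Transcripts of Wnt pathway genes fell between the stages more often than they rose. Of the 48 genes, 44 passed the filter on low counts, 18 were called lower at 15.5 dpc, 1 was called higher and 25 were not called. The lower calls make up 40.9% of the 44 genes, beside 10.7% of the 15578 genes tested in the whole table, and the 1 higher call stands beside 11.6%. Calls in either direction covered 22.3% of all genes. The median log2 fold change was -0.41 over the 44 genes and -0.01 over all genes tested. Stages were free of overlap in 27 genes with lower and 4 with higher values at 15.5 dpc, beside 23.6% and 22.8% of all genes. Under the study's own thresholds (adjusted p of at most 0.1, a mean above 100 in at least 1 stage, and a ratio of the stages under 0.6 or over 1.6), 9 genes were lower and none was higher, beside 3.58% and 6.3% of all genes, or 9.88% in either direction. Without 15.5 dpc replicate 2 the lower calls numbered 28, without replicate 1 they numbered 18, and without any of the other 4 samples they numbered 10 or 11. Calls over all genes, in either direction, numbered 3467 with all samples, 7620 without 15.5 dpc replicate 2, 4266 without replicate 1 and 1235 to 1438 without any of the other 4. In whole-organ RNA, fewer cells of a type and less RNA per cell cannot be told apart, and this applies to every difference given here.

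**Figure D1:**
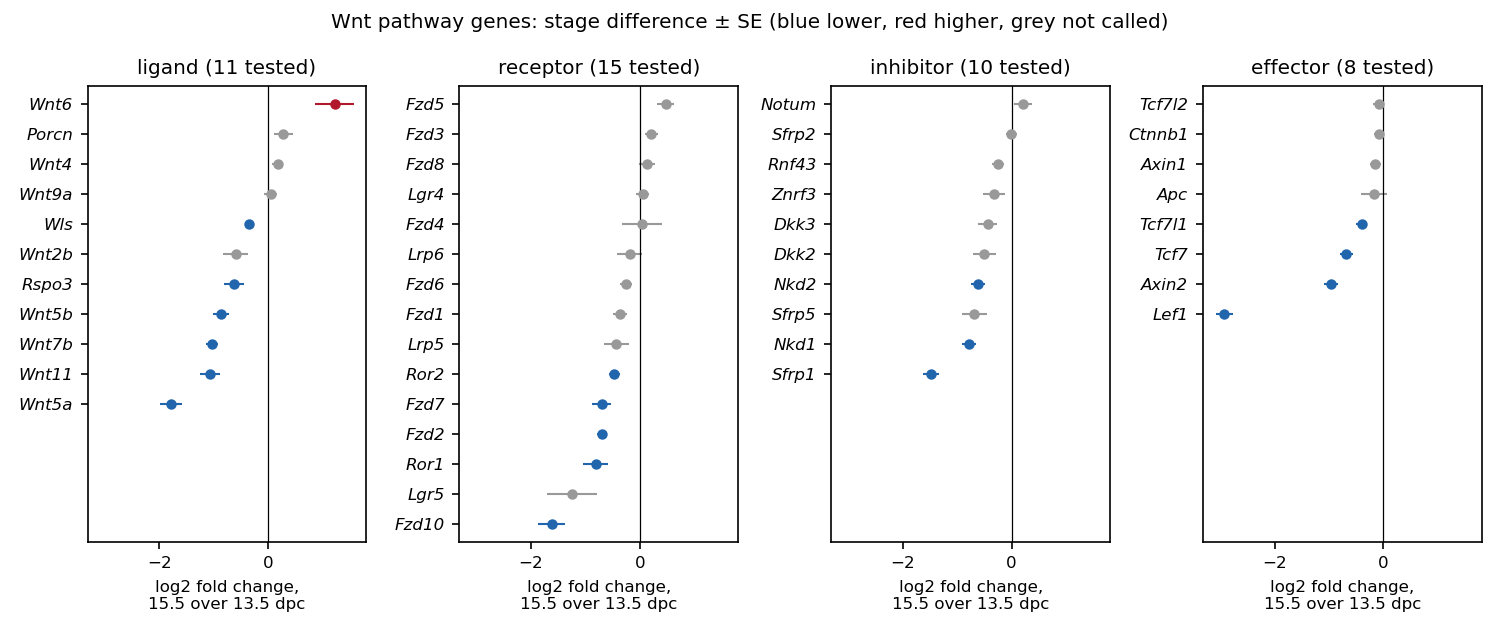
Log2 fold change of 15.5 over 13.5 dpc (x axis, points) with its SE (bars) for the 44 Wnt pathway genes tested, by class. Blue points are genes called lower, red higher and grey not called, and the effector *Lef1* at -2.92 lies furthest from 0.

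The upstream sequences of 4 genes are shown, since TCF/LEF factors bind such letters in promoters and enhancers of target genes. *Wnt5b* and *Wnt11* are ligands that were called lower and hold the letters of the TCF/LEF core in 1 of their windows, and *Lef1* and *Axin2* are the effectors with the largest falls. The windows run from 250 bases before to 50 bases after an annotated start of the gene, on the gene's own strand, and come from RefSeq on GRCm38.p6 (the assembly of mm10). Where a gene has several annotated starts, 1 window is shown, for *Wnt5b* and *Wnt11* the one with a match. They lie at chr6:119449337-119449636 (minus strand, *Wnt5b*), chr7:98834862-98835161 (plus strand, *Wnt11*), chr3:131110073-131110372 (plus strand, *Lef1*) and chr11:108920099-108920398 (plus strand, *Axin2*). Capitals mark a match to CTTTGAA or CTTTGAT, which were searched on both strands (a match on the opposite strand reads TTCAAAG or ATCAAAG).
Wnt5b: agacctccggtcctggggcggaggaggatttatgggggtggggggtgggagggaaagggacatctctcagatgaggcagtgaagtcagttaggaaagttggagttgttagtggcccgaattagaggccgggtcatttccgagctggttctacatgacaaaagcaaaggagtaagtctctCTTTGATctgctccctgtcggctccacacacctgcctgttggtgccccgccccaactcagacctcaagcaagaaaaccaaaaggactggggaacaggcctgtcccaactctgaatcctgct
Wnt11: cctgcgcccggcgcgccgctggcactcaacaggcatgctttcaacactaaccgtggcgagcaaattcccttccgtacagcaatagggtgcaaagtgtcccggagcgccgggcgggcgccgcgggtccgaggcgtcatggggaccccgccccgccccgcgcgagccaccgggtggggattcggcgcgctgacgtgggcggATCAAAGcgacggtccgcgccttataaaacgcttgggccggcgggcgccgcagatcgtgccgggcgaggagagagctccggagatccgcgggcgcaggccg
Lef1: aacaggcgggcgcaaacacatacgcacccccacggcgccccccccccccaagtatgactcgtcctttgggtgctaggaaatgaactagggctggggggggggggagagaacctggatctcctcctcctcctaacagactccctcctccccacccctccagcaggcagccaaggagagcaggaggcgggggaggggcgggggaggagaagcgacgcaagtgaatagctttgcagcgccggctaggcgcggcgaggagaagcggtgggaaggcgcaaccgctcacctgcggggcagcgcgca
Axin2: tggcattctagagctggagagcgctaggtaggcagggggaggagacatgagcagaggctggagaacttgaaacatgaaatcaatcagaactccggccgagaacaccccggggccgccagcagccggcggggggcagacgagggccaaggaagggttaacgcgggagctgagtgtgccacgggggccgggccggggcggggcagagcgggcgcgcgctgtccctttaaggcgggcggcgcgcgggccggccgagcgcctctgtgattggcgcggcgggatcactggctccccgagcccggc

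The *Wnt5b* match lies 71 bases before the start site and the *Wnt11* match, on the opposite strand, 51 bases before it. The 2 other *Wnt5b* windows and the 1 other *Wnt11* window hold no match, nor do the *Lef1* and *Axin2* windows. Promoter windows were found for 30 of the 48 genes and not for *Wnt5a*, *Wnt7b* or *Rspo3*, which were also called lower. There were 40 windows in all, and 3 of the windows (7.5%) held a match, the third being that of *Dkk1* at 117 bases before the start site. Of all 32851 mouse windows of the same length, 8.65% held one. A match is a run of letters and not a measured binding site, and enhancers outside these windows were not searched.

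The ligand genes included the Wnt genes with the largest falls. Of 11 ligand genes tested, 6 were called lower and 1 higher, beside 10.7% and 11.6% of all genes. Their median log2 fold change was -0.59. *Wnt5a* (chromosome 14, 28504750 to 28527447), a ligand of Ror receptors that acts mainly without β-catenin, had 839, 763 and 811 normalised counts at 13.5 dpc and 176, 308 and 214 at 15.5 dpc. Every 15.5 dpc sample thus lay far below every 13.5 dpc sample, and the stage means differed 3.46-fold. The log2 fold change was -1.78 (SE 0.20, adjusted p 0.0015), the largest fall among the ligand genes.

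*Wnt7b* (chromosome 15, 85535439 to 85581821) is a ligand made by the epithelium of the embryonic pancreas. It had 924, 802 and 862 normalised counts at 13.5 dpc and 392, 441 and 436 at 15.5 dpc. The stages were well apart and the samples of each lay close together, with a log2 fold change of -1.03 (SE 0.10, adjusted p 0.00106). *Wnt11* (chromosome 7, 98835112 to 98855195), a ligand known for its part in cell movement and organ branching, had 119, 96.0 and 123 normalised counts at 13.5 dpc and 62.3, 44.99 and 55.4 at 15.5 dpc. It fell by 1.06 on the log2 scale (SE 0.18, adjusted p 0.00727), with no overlap of the stages. *Wnt5b* (chromosome 6, 119432531 to 119544347), a close relative of Wnt5a, had 297, 256 and 250 normalised counts at 13.5 dpc and 173, 134 and 134 at 15.5 dpc. Its log2 fold change was -0.87 (SE 0.15, adjusted p 0.0072), again without overlap. The calls of *Wnt5a*, *Wnt7b*, *Wnt11* and *Wnt5b* were kept without each of the 6 samples in turn, with an adjusted p of at most 0.0447.

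The other calls among the ligand genes rested on smaller differences. *Rspo3* (chromosome 10, 29453109 to 29535867), a secreted protein that strengthens Wnt signals by keeping Frizzled receptors on the cell surface, had 132, 125 and 99.8 normalised counts at 13.5 dpc and 72.0, 92.0 and 65.5 at 15.5 dpc. The stages did not overlap but came close, with a log2 fold change of -0.63 (SE 0.19, adjusted p 0.0499). *Wls*, the carrier that brings Wnt proteins to the cell surface, had 1513, 1423 and 1409 normalised counts at 13.5 dpc and 1110, 1196 and 1130 at 15.5 dpc. Its fall was shallow and free of overlap, with a log2 fold change of -0.34 (SE 0.09, adjusted p 0.0295). *Wnt6* (chromosome 1, 74771892 to 74785319), a ligand typical of epithelia, was the 1 gene called higher. It had 7.29, 7.72 and 5.75 normalised counts at 13.5 dpc and 23.5, 12.3 and 13.9 at 15.5 dpc, from raw counts of only 8 to 17 per sample. The log2 fold change was 1.23 (SE 0.35, adjusted p 0.0452). These 3 calls were lost without any 1 of several samples, while the log2 fold changes kept their direction. With 1 sample left out they ran from -0.77 to -0.53 for *Rspo3*, -0.36 to -0.31 for *Wls* and 0.91 to 1.43 for *Wnt6*. Adjusted p ranged from 0.059 to 0.17 for *Rspo3* without any 1 sample other than 15.5 dpc replicate 2, and from 0.0965 to 0.156 for *Wnt6* without any 1 sample other than that replicate. For *Wls* it was 0.0965 to 0.144 without any 13.5 dpc sample or 15.5 dpc replicate 3. DESeq2 gave *Wnt6* an adjusted p of 0.0573.

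*Wnt2b*, a mesenchymal ligand of the foregut, had 253, 288 and 338 normalised counts at 13.5 dpc and 133, 258 and 189 at 15.5 dpc. The stages overlapped through 15.5 dpc replicate 2, and the log2 fold change of -0.59 (SE 0.24, adjusted p 0.107) was not called, whereas without that replicate it was -0.85 (adjusted p 0.00673). The ligands *Wnt4* (log2 fold change 0.18, adjusted p 0.248) and *Wnt9a* (0.05, adjusted p 0.762) and the acyltransferase gene *Porcn*, whose product lipidates Wnt proteins (0.29, adjusted p 0.275), were not called. All 3 *Wnt4* values at 15.5 dpc, 233 to 266, nonetheless lay above the 212 to 225 of 13.5 dpc. *Wnt2* had 1 to 3 raw counts in each of the 6 samples and was not tested.

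**Figure D2:**
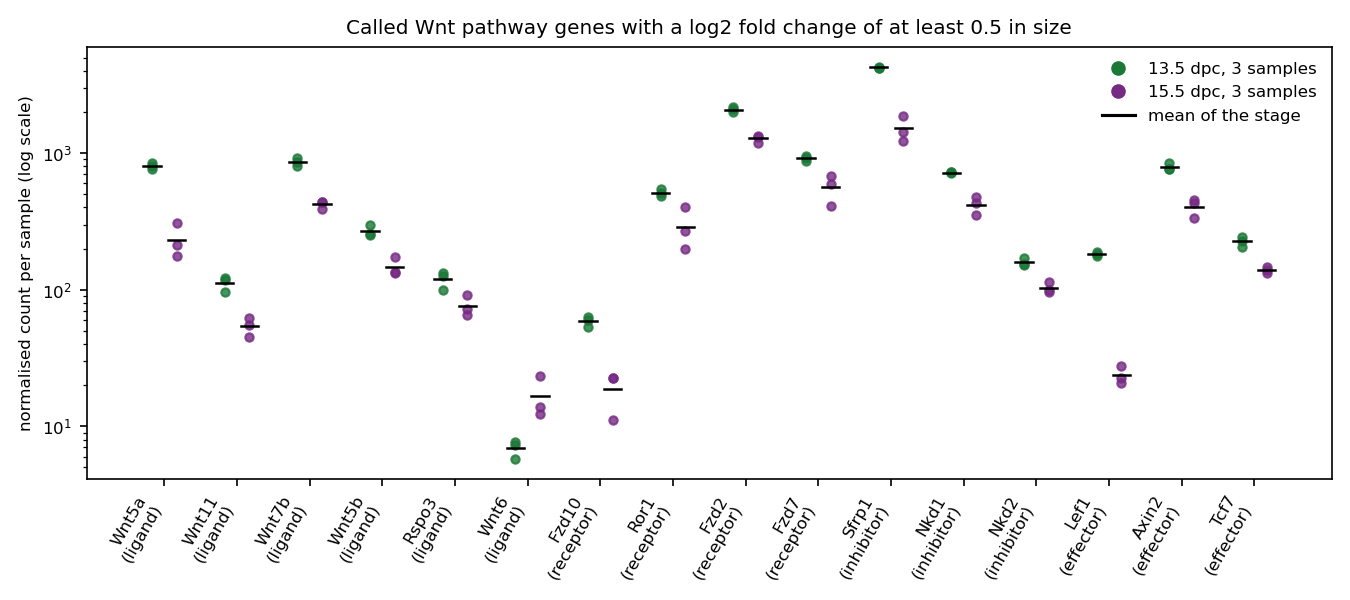
Normalised count in each sample (y axis, log scale) of the 16 called Wnt pathway genes with a log2 fold change of at least 0.5 in size (x axis), with the stage mean as a bar. Green points are 13.5 dpc and purple points 15.5 dpc samples, and purple lies below green throughout except for *Wnt6*.

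The make-up of the Wnt transcripts differed accordingly. For a comparison between genes, normalised counts were divided by exon length and are given per kb. The 9 Wnt genes summed to 609 ± 23.5 normalised counts per kb at 13.5 dpc and 360 ± 12.8 at 15.5 dpc (SD, n = 3 each), without overlap. *Wnt7b* held the largest share at both stages, 31.2% to 33.3% of the sum at 13.5 dpc and 25.3% to 27.8% at 15.5 dpc. *Wnt5a* held 16.7% to 17.1% at 13.5 dpc and 6.40% to 10.5% at 15.5 dpc. The share of *Wnt4* was 8.21% to 9.19% and then 14.8% to 18.0%, and that of *Wnt9a* 6.32% to 7.29% and then 10.3% to 12.5%. *Wnt5a* and *Wnt5b*, at 103 and 101 normalised counts per kb at 13.5 dpc, overlapped in their samples. At 15.5 dpc, *Wnt5a* (22.5, 39.4 and 27.4 per kb) lay below *Wnt5b* (65.2, 50.5 and 50.3) in every sample. The most abundant ligand gene at both stages was *Wls*, at 439 and 347 per kb.

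Among the receptor genes, 5 of 15 were called lower and none higher, beside 10.7% and 11.6% of all genes. Their median log2 fold change was -0.37. *Fzd10* (chromosome 5, 128601106 to 128604093) and the other Frizzled genes encode the receptors that bind Wnt proteins. *Fzd10* had 53.8, 63.4 and 59.6 normalised counts at 13.5 dpc and 11.1, 22.5 and 22.7 at 15.5 dpc. It was the receptor gene with the largest fall (log2 fold change -1.62, SE 0.26, adjusted p 0.00537), and its stages were well apart. *Fzd2* (chromosome 11, 102604431 to 102608058) had 2162, 1986 and 2101 normalised counts at 13.5 dpc and 1193, 1337 and 1315 at 15.5 dpc. It was the most abundant receptor gene per kb at both stages, and it fell by 0.70 on the log2 scale (SE 0.09, adjusted p 0.00262) without overlap. The calls of *Fzd10* and *Fzd2* were kept without each sample in turn, with an adjusted p of at most 0.0332.

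*Fzd7* (chromosome 1, 59482147 to 59486947) had 927, 875 and 953 normalised counts at 13.5 dpc and 408, 685 and 598 at 15.5 dpc. Its 15.5 dpc samples were all lower but spread widely, with a log2 fold change of -0.70 (SE 0.18, adjusted p 0.0315). *Ror1* (chromosome 4, 100095791 to 100444765) encodes a receptor tyrosine kinase-like protein that responds to Wnt5a. It had 482, 507 and 542 normalised counts at 13.5 dpc and 198, 401 and 271 at 15.5 dpc, with a log2 fold change of -0.81 (SE 0.23, adjusted p 0.0446) and no overlap. Its relative *Ror2* had 1043, 955 and 1049 normalised counts at 13.5 dpc and 699, 804 and 701 at 15.5 dpc, and its log2 fold change was -0.47 (SE 0.10, adjusted p 0.0167). *Wnt5a* and both Ror genes were thus lower at the later stage. The calls of *Fzd7*, *Ror1* and *Ror2* were lost without any 1 of the 13.5 dpc samples or without 15.5 dpc replicate 3, where adjusted p was 0.0577 to 0.148, and all 3 stayed negative.

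The remaining 10 receptor genes were not called. *Lgr4*, a receptor for R-spondins, had 1132, 1109 and 1056 normalised counts at 13.5 dpc and 984, 1311 and 1123 at 15.5 dpc. These overlapped (log2 fold change 0.05, SE 0.12, adjusted p 0.763), and by its mean per kb *Lgr4* was the second most abundant receptor gene at 15.5 dpc and the fifth at 13.5 dpc. Its relative *Lgr5*, a known Wnt target that marks stem cells of the gut, had 35.5, 36.0 and 40.9 normalised counts at 13.5 dpc and 2.77, 22.5 and 20.1 at 15.5 dpc. The stages of *Lgr5* did not overlap, and its log2 fold change was -1.25 (SE 0.45, adjusted p 0.0862). The low value of 15.5 dpc replicate 1 came from 2 raw counts, and without that sample the log2 fold change was -0.81 (adjusted p 0.0308). Without replicate 2 it was -1.65 (adjusted p 0.0217), and DESeq2 gave -1.27 (adjusted p 0.0469).

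The co-receptor genes *Lrp5* (log2 fold change -0.43, adjusted p 0.195) and *Lrp6* (-0.19, adjusted p 0.563) overlapped between the stages. In *Lrp6*, 15.5 dpc replicate 1 was the lowest of all 6 samples at 972 normalised counts and replicate 2 the highest at 1887. *Fzd1* and *Fzd6* were lower without overlap but not called (log2 fold changes -0.37 and -0.25, adjusted p 0.08 and 0.126). Without 15.5 dpc replicate 2, *Lrp5*, *Lrp6*, *Fzd1* and *Fzd6* were called lower. Their log2 fold changes were then -0.65, -0.47, -0.45 and -0.31 (adjusted p 0.0158, 0.0247, 0.0139 and 0.0403). With the exon length trend removed they were -0.18, 0.062, -0.29 and -0.18, and only *Fzd1* was called (adjusted p 0.0481).

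*Fzd5*, a Frizzled of gut and eye epithelia, ran the other way. It had 259, 265 and 306 normalised counts at 13.5 dpc and 311, 448 and 394 at 15.5 dpc, which do not overlap. Its log2 fold change of 0.48 (SE 0.15, adjusted p 0.0628) was not called. It was called without 15.5 dpc replicate 1 (0.61, adjusted p 0.00447) and with DESeq2 (0.49, adjusted p 0.0284). With the exon length trend removed it was called as well (0.67, adjusted p 0.00101). The other Frizzled genes, *Fzd3* (log2 fold change 0.21), *Fzd8* (0.14) and *Fzd4* (0.04), had an adjusted p of 0.2 or more. In the sum over the 9 Frizzled genes, 1249 ± 47.5 normalised counts per kb at 13.5 dpc and 925 ± 128 at 15.5 dpc (SD, n = 3 each), the share of *Fzd2* was 44.98% to 47.2% and then 35.5% to 41.9%. The share of *Fzd5* was 2.97% to 3.44% and then 5.74% to 6.24%, and that of *Fzd8* 5.48% to 6.45% and then 8.69% to 8.89%.

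At 13.5 dpc, an inhibitor gene was the most abundant of the 48 genes per kb after *Ctnnb1*, the β-catenin gene. *Sfrp1* (chromosome 8, 23411502 to 23449632) encodes a secreted Frizzled-related protein that binds Wnt proteins outside the cell. It had 4295, 4203 and 4211 normalised counts at 13.5 dpc and 1233, 1875 and 1436 at 15.5 dpc. The 13.5 dpc samples were almost equal and the 15.5 dpc samples far lower, by 2.80-fold in the means. The log2 fold change was -1.48 (SE 0.16, adjusted p 0.00124), and the call was kept without each sample in turn. Its relative *Sfrp2* had 867, 898 and 858 normalised counts at 13.5 dpc and 880, 787 and 943 at 15.5 dpc. These values overlapped, with a log2 fold change of -0.01 (SE 0.10, adjusted p 0.964), whose sign depended on the normalisation.

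Per kb, *Sfrp1* stood at 969 and *Sfrp2* at 406 at 13.5 dpc, and at 346 and 404 at 15.5 dpc. *Sfrp1* made up 68.7% to 70.0% of the sum over the 4 Sfrp genes at 13.5 dpc, but 39.8% to 53.3% at 15.5 dpc. *Sfrp2* then held 45.5% to 57.6%, after 28.7% to 29.8% at 13.5 dpc. The order of the genes at 15.5 dpc was not the same in every sample, since *Sfrp1* was still ahead in replicate 2, at 429 against 366 per kb. The sum was 1394 ± 13.2 normalised counts per kb at 13.5 dpc and 765 ± 49.2 at 15.5 dpc (SD, n = 3 each).

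**Figure D3:**
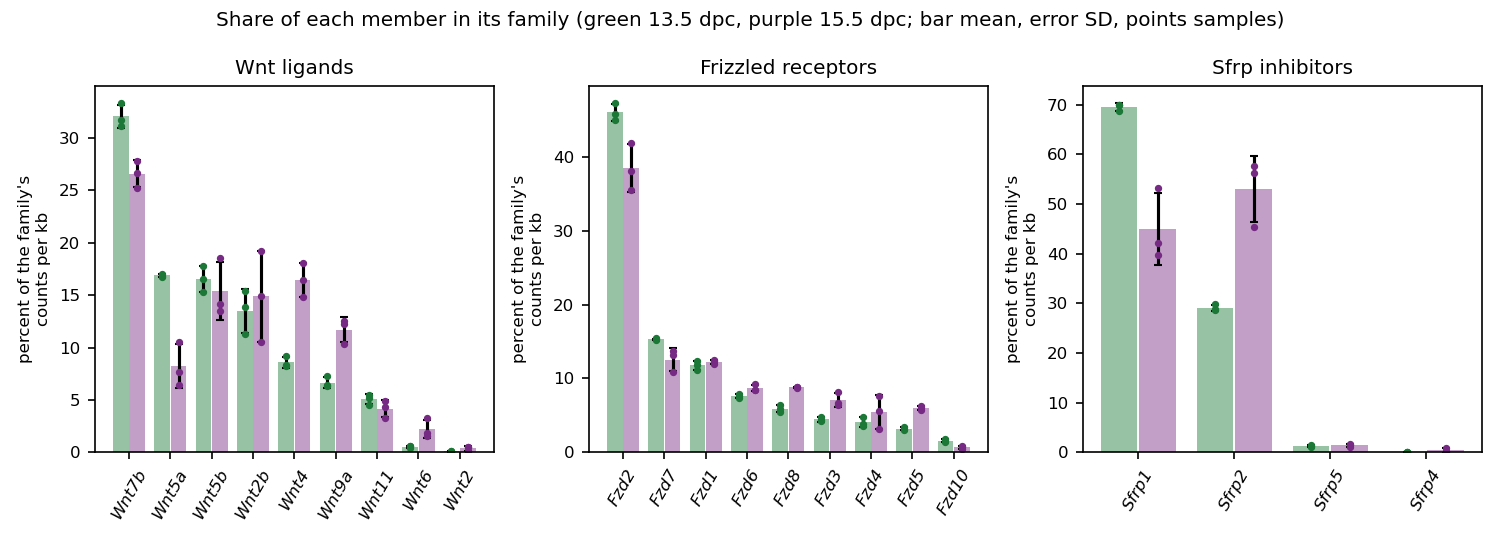
Share of each gene in the normalised counts per kb of its family (y axis, percent), for the Wnt, Frizzled and Sfrp genes. Bars are means of 3 samples, error bars SD and points the samples, and *Wnt5a*, *Fzd2* and *Sfrp1* had smaller shares at 15.5 dpc (purple) than at 13.5 dpc (green) in every sample.

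Of the inhibitors that act inside the cell, both Naked cuticle genes fell. *Nkd1* (chromosome 8, 88521344 to 88594887), a target of the pathway whose product binds Dishevelled, had 710, 724 and 729 normalised counts at 13.5 dpc and 350, 476 and 431 at 15.5 dpc. The stages were clearly apart, with a log2 fold change of -0.78 (SE 0.13, adjusted p 0.00588) that was called without each sample in turn. *Nkd2* (chromosome 13, 73818534 to 73847631) had 154, 152 and 170 normalised counts at 13.5 dpc and 95.5, 100.2 and 115 at 15.5 dpc, with no overlap. Its log2 fold change was -0.62 (SE 0.13, adjusted p 0.0167), and adjusted p was 0.0648 to 0.0833 without any 1 of the 13.5 dpc samples.

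In all, 3 of the 10 inhibitor genes tested were called lower and none higher, beside 10.7% and 11.6% of all genes. Their median log2 fold change was -0.47. The 7 not called included *Sfrp5* (log2 fold change -0.68, SE 0.23, adjusted p 0.07), which had 29.5 to 40.3 normalised counts at 13.5 dpc and 17.4 to 23.5 at 15.5 dpc. *Dkk2* and *Dkk3*, of the Dickkopf family of secreted proteins, had log2 fold changes of -0.50 and -0.44 (adjusted p 0.124 and 0.101). Their stages did not overlap, but those of *Dkk2* nearly met. Its lowest 13.5 dpc sample had 195.5 and its highest 15.5 dpc sample 195.3 normalised counts. The ubiquitin ligase genes *Znrf3* and *Rnf43*, whose products remove Frizzled receptors from the cell surface, had log2 fold changes of -0.33 and -0.25 (adjusted p 0.262 and 0.141). Without 15.5 dpc replicate 2, *Dkk2* (-0.74, adjusted p 0.00614), *Dkk3* (-0.59, adjusted p 0.0174) and *Znrf3* (-0.56, adjusted p 0.0152) were called lower. *Notum*, which encodes the enzyme that strips the lipid from Wnt proteins, had a log2 fold change of 0.21 (SE 0.17, adjusted p 0.374). The other 3 inhibitor genes were too low to test. *Dkk1* had 1 to 3 raw counts per sample at 13.5 dpc and 0 in each of the 3 samples at 15.5 dpc, where a floor of 3 counts per library allows no difference to be read. *Sfrp4* had 1 to 8 and *Wif1* 2 to 16 raw counts per sample.

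*Lef1* (chromosome 3, 131110471 to 131224356), a TCF/LEF factor that is also a target of the pathway, showed the largest change of the 44 genes tested. It had 183, 176 and 188 normalised counts at 13.5 dpc and 20.8, 27.6 and 22.7 at 15.5 dpc. The stages were 7.70-fold apart in their means (182 ± 6.25 and 23.7 ± 3.54, SD, n = 3 each). The log2 fold change was -2.92 (SE 0.16, adjusted p 0.000257), and without each sample in turn it stayed between -3.05 and -2.84. *Tcf7* (chromosome 11, 52252371 to 52283014), a second TCF/LEF factor that the pathway induces, had 227, 206 and 245 normalised counts at 13.5 dpc and 140, 147 and 134 at 15.5 dpc. It fell by 0.69 on the log2 scale (SE 0.12, adjusted p 0.00837) without overlap, and adjusted p was 0.0502 without 13.5 dpc replicate 1 and 0.0506 without 15.5 dpc replicate 3. *Tcf7l1*, which mostly represses target genes, had 939, 940 and 994 normalised counts at 13.5 dpc and 650, 799 and 730 at 15.5 dpc. Its log2 fold change was -0.40 (SE 0.10, adjusted p 0.0332), and adjusted p was 0.113 to 0.131 without any 1 of the 13.5 dpc samples or 15.5 dpc replicate 3. *Tcf7l2*, the factor most used in gut epithelium, was not called (log2 fold change -0.09, SE 0.10, adjusted p 0.536). Per kb, *Tcf7l1* made up 57.9% to 58.8% of the 4 TCF/LEF genes at 13.5 dpc and 57.8% to 60.8% at 15.5 dpc. *Lef1* was the least abundant of them at both stages, with 4.22% to 4.33% and then 0.708% to 0.790%.

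*Axin2* (chromosome 11, 108920349 to 108950783), the most widely used reporter of β-catenin signalling and itself a part of the destruction complex, had 770, 770 and 840 normalised counts at 13.5 dpc and 334, 451 and 433 at 15.5 dpc. No 15.5 dpc sample came near the 13.5 dpc samples. The log2 fold change was -0.96 (SE 0.13, adjusted p 0.00331), and the call was kept without each sample in turn, at an adjusted p of at most 0.0254. Its constitutive relative *Axin1* had 1144, 1120 and 1135 normalised counts at 13.5 dpc and 911, 1065 and 1089 at 15.5 dpc. The *Axin1* samples did not overlap, but the log2 fold change of -0.15 (SE 0.10, adjusted p 0.294) was not called.

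*Ctnnb1*, the β-catenin gene, was by far the most abundant of the 48 genes, at 3712 and 3488 normalised counts per kb. Among the other genes of the pathway, *Gpc3* was above it, at 4533 and 4382. It had 19043, 18843 and 18899 normalised counts at 13.5 dpc and 16741, 18625 and 17994 at 15.5 dpc. The stages did not overlap but lay close together, and the log2 fold change of -0.09 (SE 0.09, adjusted p 0.479) was not called. *Apc* had a log2 fold change of -0.17 (SE 0.24, adjusted p 0.607), and its lowest and highest values, 671 and 1315 normalised counts, were both at 15.5 dpc, in replicates 1 and 2. Without replicate 2, *Apc* was called lower (-0.49, adjusted p 0.0119), whereas with the exon length trend removed it was at 0.17 and not called. Of the 8 effector genes, 4 were thus called lower and none higher, beside 10.7% and 11.6% of all genes. Their median log2 fold change was -0.29.

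The genes known as feedback targets of the pathway cross these classes. Of 9 such genes (*Axin2*, *Nkd1*, *Nkd2*, *Notum*, *Znrf3*, *Rnf43*, *Lgr5*, *Lef1* and *Tcf7*), 5 were called lower and none higher, beside 10.7% and 11.6% of all genes, and the median log2 fold change was -0.69. The lower calls numbered 3 without 13.5 dpc replicate 1, 7 without 15.5 dpc replicate 2 and 4 to 6 without any of the other 4 samples. *Znrf3*, *Rnf43*, *Lgr5* and *Notum* were the 4 not called. RNA of these genes was measured, not β-catenin activity.

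Other genes of the pathway, 62 in number and listed by role, gave a mixed picture. Of these, 48 were tested, 16 were called lower and 5 higher, beside 10.7% and 11.6% of all genes. The lower calls numbered 6 or 7 and the higher calls 2 without any 1 of the 13.5 dpc samples or 15.5 dpc replicate 3. They numbered 27 and 8 without 15.5 dpc replicate 2, and 18 and 6 without replicate 1. *Tbx3*, a T-box factor and Wnt target, had 566, 468 and 558 normalised counts at 13.5 dpc and 112, 190 and 166 at 15.5 dpc (log2 fold change -1.76, SE 0.19, adjusted p 0.00151). The other lower calls with the largest differences were *Apcdd1*, a membrane inhibitor and target of the pathway (-1.31, adjusted p 0.00438), *Draxin*, a secreted inhibitor (-1.30, adjusted p 0.0319), and *Pygo1*, a nuclear partner of β-catenin (-1.27, adjusted p 0.00233). The largest rise was that of *Sostdc1*, a secreted antagonist of Wnt and BMP signals, from 22.8, 23.2 and 22.3 normalised counts to 393, 191 and 275 (log2 fold change 3.64, SE 0.30, adjusted p 0.00067). *Frzb*, a further Sfrp-like inhibitor, rose from 31.6 to 39.2 to between 65.0 and 83.1 normalised counts (1.11, SE 0.18, adjusted p 0.0056). *Fzd9* (0.88, adjusted p 0.032) and the Wnt target *Myc* (0.38, adjusted p 0.0433) were called higher as well. The calls of *Fzd9*, *Myc* and *Draxin* were lost without any 1 of the 13.5 dpc samples or without 15.5 dpc replicate 3, with an adjusted p of up to 0.123, 0.172 and 0.109, respectively. Secreted inhibitors were thus called in both directions, *Sfrp1*, *Draxin* and *Igfbp4* (-0.41, adjusted p 0.0452) lower and *Sostdc1* and *Frzb* higher. The call of *Igfbp4* was lost without the same samples as that of *Draxin*, with an adjusted p of up to 0.169.

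Markers of the cell types in the organ were measured beside these genes. For comparison with their calls, 11.6% of all genes tested were called higher and 10.7% lower. The 12 markers of mesenchyme were divided (3 higher, 2 lower, median log2 fold change -0.16; 2 to 7 calls without 1 sample), and their summed normalised counts were 123259 to 139413 at 13.5 dpc and 91981 to 136167 at 15.5 dpc. *Pdgfra* was among the lower ones at -1.33 (adjusted p 0.00605), while *Thy1* rose by 0.68 (adjusted p 0.00658). The tissue of origin was not tested for the 6 genes listed as markers of spleen and gut mesenchyme, all of which had negative log2 fold changes. Of these genes, 5 were called lower and *Nkx2-5* was not (-0.65, adjusted p 0.311). Their median was -0.996, and their sums were 1955 to 2251 and then 935 to 1225. Without any 1 of the 13.5 dpc samples or 15.5 dpc replicate 3, the lower calls numbered 3. The homeobox gene *Tlx1* of the spleen was at -1.22 (adjusted p 0.00573) and *Nkx3-2* at -1.70 (adjusted p 0.00162).

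The 10 markers of pancreatic epithelium were called higher in 4 cases and lower in 2, with sums of 30422 to 32096 and then 37194 to 44852. Without any 1 of the 13.5 dpc samples or 15.5 dpc replicate 3, only *Krt18* was called, and it was higher. The acinar markers were higher in 9 of 10 cases, also without each sample in turn, with sums of 98772 to 118653 and then 623280 to 1322417. Of the 6 cell cycle markers, 0 were called by edgeR or DESeq2 and 0 had an unadjusted p under 0.05, but 2 were called higher without 15.5 dpc replicate 2. In the intestine and stomach list of 6 genes, *Tff1* and *Muc5ac* were at 0 in all samples. *Cdx1* and *Cdx2* had at most 5 raw counts per sample and *Sox2* 4 to 15, and *Vil1*, the 1 gene tested, was higher. The part of any shift in cell types in the falls of the Wnt pathway genes was not tested.

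**Figure D4:**
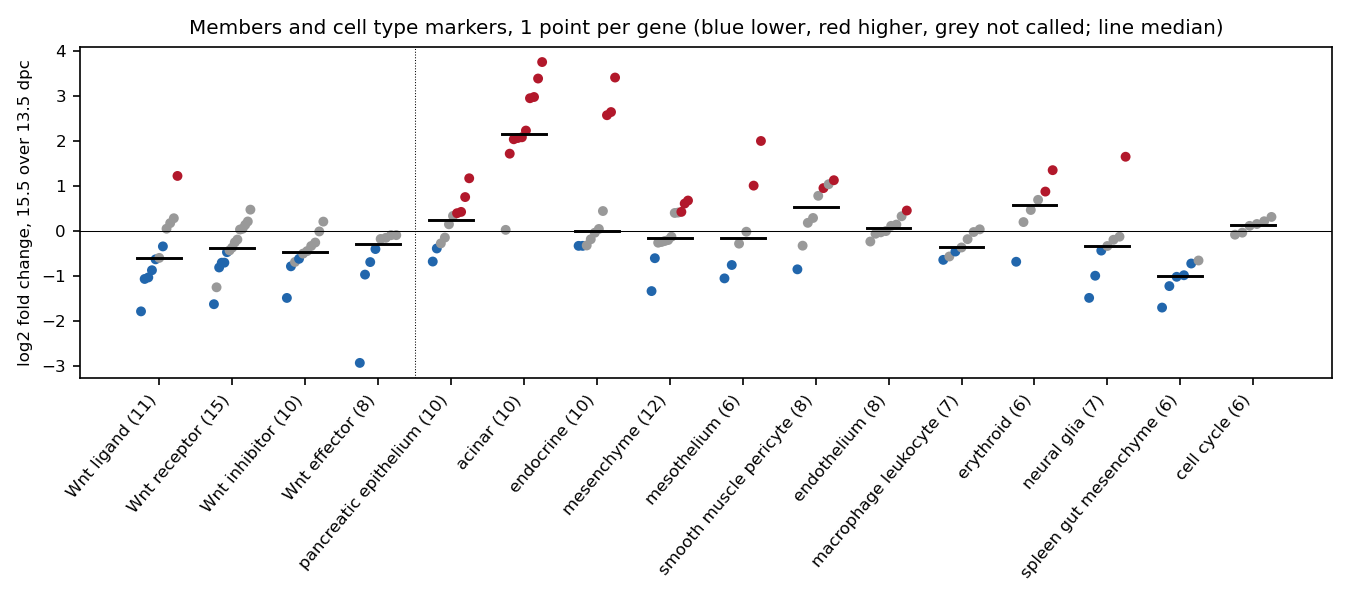
Log2 fold change of 15.5 over 13.5 dpc (y axis) of each Wnt pathway gene tested, by class (left of the dotted line), and of each marker gene tested, by cell type (right), with 1 point per gene and the median as a bar. The ligand median of -0.59 and the spleen and gut mesenchyme median of -0.996 lie below 0, while the acinar median is 2.16.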

How the data were processed

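RNA of 6 pools of wt embryonic pancreata was sequenced by the authors from a single end as strand-specific poly(A) libraries. Alignment to mm10 was done by the authors with GSNAP. They assigned reads with a unique alignment to Ensembl genes by featureCounts (1.4.6 in the submitters' processing notes, which also name bcl2fastq 1.8.4) and deposited raw counts per gene. The table also gives exon length in bases, which the authors' counting tool wrote. Symbols came from an mm10 annotation and matched 35449 of 37224 identifiers (99.4% to 99.6% of the counts of each sample). Opposite-strand partners of *Ctnnb1* held 35 to 119 counts and those of the other Wnt pathway genes at most 7. Of 296 genes nested in a host on the same strand 0 had 10 counts, while 28 of 147 on the opposite strand had, and counting was taken to use the strand.

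Counts were filtered with filterByExpr, normalised with TMM (factors 0.847 to 1.08) and tested in R 4.3.3 with edgeR 4.0.16 (quasi-likelihood, no covariates, Benjamini-Hochberg adjustment over 15578 genes). SE was derived as the absolute log2 fold change over the square root of F. For normalised counts the common library size is the geometric mean of the effective ones. Alternatives used DESeq2 1.42.0, a lowess correction for exon length (span 0.5), other scalings, filters and thresholds, the replicate number as a block, and each sample left out in turn. Steps were tested on simulated data, and figures were drawn with Python 3.11.15. P-values rest on the spread between pools.

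The genes and lists were chosen with earlier results of these data known. Values in all samples are given for called genes with a log2 fold change of at least 0.5 in size and for the 2 most abundant genes per kb of each class, with some others added after their values were seen. Of the other pathway genes, at most 4 per direction with the largest differences are named, and *Igfbp4* was added after its values were seen. Samples of a stage differed by more than sampling noise and were counted separately (chi-square per gene 1.61 to 65.3). Protein sequences were not analysed here.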

Additional observations from a re-analysis of the deposited data

How the results depend on the processing

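Of 657 comparisons of single Wnt pathway genes with an alternative, 573 kept the direction and the side of the threshold, and no called gene changed sign. The 1 higher call became 0 with library size only, no filter or the replicate block. It also became 0 with at least 10 counts in every sample, where *Wnt6* was not tested. With the gene length trend removed or at an adjusted p of 0.1, the higher calls were 2 (*Wnt6* and *Fzd5*). Removing that trend also gave lower calls of *Fzd1* (-0.29, adjusted p 0.0481) and *Sfrp5* (-0.82, adjusted p 0.0205). Leaving out each sample gave 0 to 1 higher, 10 to 28 lower, 4 to 8 ligand, 2 to 10 receptor, 2 to 6 inhibitor and 2 to 5 effector calls, 7 to 13 genes past the study's thresholds, 8 to 35 other pathway genes and 1235 to 7620 calls over all genes. The 28 lower and 7620 overall calls were reached without 15.5 dpc replicate 2, and the cause was not tested. At an adjusted p of 0.1, 8 receptor genes and 5303 of all genes were called. Scaling by library size only, which moved the median of all genes from -0.01 to -0.22, gave 5 inhibitor calls, 15 genes past the study's thresholds and 21 lower calls. Replicate numbers did not pair the samples (same-number r 0.22, -0.218 and 0.038, and 13.5 dpc replicate 3 was nearest to 15.5 dpc replicate 2 at 0.388). The replicate block gave 14 lower and 4 ligand calls and 2676 over all genes. It ended the calls of *Wnt6* (adjusted p 0.0678), *Rspo3* (0.0532), *Wls* (0.0887), *Ror2* (0.051) and *Tcf7l1* (0.0684), and RLE factors ended that of *Rspo3* (0.0521).

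Signs reversed only in genes that were not called, and the cause was not tested. *Sfrp2* was at 0.01 with RLE factors, 0.009 with DESeq2, and -0.068 to 0.075 without 1 sample. With library size only, *Wnt4* was at -0.038, *Wnt9a* at -0.16, *Fzd4* at -0.15, *Fzd8* at -0.063, *Lgr4* at -0.15 and *Notum* at -0.015. *Fzd4* was at -0.072 with the replicate block. With the length trend removed, *Lrp6* was at 0.062, *Ctnnb1* at 0.031, *Apc* at 0.17 and *Tcf7l2* at 0.17. Without 1 sample, *Fzd4* ranged from -0.38 to 0.37, *Lrp6* from -0.47 to 0.014, *Apc* from -0.49 to 0.017 and *Lgr4* from -0.046 to 0.15. Genes with few counts, such as *Wnt6* and *Fzd10*, are limited by depth, and *Wnt2*, *Sfrp4*, *Dkk1* and *Wif1* could not be tested at this depth.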

Other observations

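Wnt ligands outside the 9 described were scarce in these pancreata. Of 10 further Wnt genes, none passed the filter on low counts. *Wnt1*, *Wnt3a* and *Wnt8b* had 0 counts in each of the 6 samples, which in each library allows up to 3 counts. *Wnt3* had 13, 10 and 20 raw counts at 13.5 dpc and 3, 6 and 3 at 15.5 dpc. *Wnt7a*, the close relative of *Wnt7b*, had 9, 14 and 14 raw counts at 13.5 dpc and 3, 0 and 0 at 15.5 dpc. *Wnt9b*, *Wnt10a*, *Wnt10b* and *Wnt16* had at most 7 raw counts in any sample. Among the R-spondins, *Rspo1* had the highest means, 63.2 and then 74.5 normalised counts per kb, beside 49.7 and 31.95 for *Rspo3*. *Rspo1* had 118, 169 and 160 raw counts at 13.5 dpc and 85, 142 and 135 at 15.5 dpc. After normalisation its log2 fold change was 0.24 (SE 0.18, adjusted p 0.362), and it was not called.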
